A study of Mus musculus with 23 samples.

Results

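The heat shock chaperones are the proteins that fold, hold and refold other proteins, and 10 of their genes were followed here in mouse spleen: Hsph1, Hspa8, Hspa1a, Hspa1b, Hsp90aa1, Hsp90ab1, Dnajb1, Dnaja1, Hspd1 and Hspe1. A gene entered if a probe of the array carried its symbol in the platform annotation and if that probe had a detection p-value under 0.05 on at least 3 of the 23 arrays. Of the 10 genes, 5 had such a named probe, 1 each, and 4 of those passed the detection rule (Hsph1, Hspa1a, Dnajb1 and Hspd1), among 11348 measured genes in all. Dnaja1 was detected on 1 of the 23 arrays and did not pass. Hspa8, Hspa1b, Hsp90aa1, Hsp90ab1 and Hspe1 were not analysed here.

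The study measured spleen RNA of 10-week-old male mice of the inbred strains DBA/2J and C57BL/6J, whose crosses gave the BXD lines, 24 h after whole-body gamma irradiation or a sham exposure. Each strain had 3 groups: sham-exposed controls, mice given 10 cGy by 137Cs (9 cGy per hour), and mice given 1 Gy by 60Co (6 Gy per minute). Every array held a pool of RNA from 2 mice, and every group had 4 pools except DBA/2J at 10 cGy, which had 3. Dose, dose rate and radiation source changed together and cannot be told apart. The pools are numbered within each group in accession order, so that a number names a pool and pairs nothing. Levels are normalised probe signals on a log2 scale, changes are log2 fold changes ± SE, and p-values are from limma with Benjamini-Hochberg adjustment over 17176 tested features, called at 0.05. Shares of all features are shares called at this adjusted threshold, also where a count at an unadjusted p stands beside them. The p-values weigh each change against the spread between pools of 2 mice. That spread was taken over all groups together and drawn by limma towards the spread of other features.

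A folding protein passes along a chain of chaperones. HSP70 proteins bind exposed stretches of a client and release it in a cycle driven by ATP, J-domain proteins such as Dnajb1 and Dnaja1 deliver the client and stimulate the ATPase, and HSP110 proteins such as Hsph1 exchange the nucleotide so that the client is released. Clients then move on to HSP90 through linker cochaperones such as Stip1, while in mitochondria the chaperonin Hspd1, with its lid Hspe1, folds imported proteins inside a closed chamber. Transcription of many of these genes is induced by heat shock factor 1 (HSF1), which binds as a trimer to inverted repeats of the unit GAA, and the same proteins are made constitutively in dividing and secreting cells, both of which the spleen holds.

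The promoters of the 3 well-detected members are shown, with paired GAA units marked, so that the letters HSF1 is known to bind can be read beside the responses. The sequences are RefSeq's for GRCm38.p6 and run 5′ to 3′ on the strand of transcription. For Hsph1 and Dnajb1 they are the 250 bases before the start site (chr5:149636337-149636586, minus strand, and chr8:83607925-83608174, plus strand). Hspd1 and Hspe1 lie head to head, and the stretch shown is the 215 bases that their upstream windows share (chr1:55087933-55088147, on the strand of Hspd1). Each of these 3 members had another upstream window, which held 0 pairs for Hspd1 and Dnajb1 and the same pair for Hsph1. Capitals mark the pairs GAANNTTC or TTCNNGAA, which read the same on both strands.
Hsph1: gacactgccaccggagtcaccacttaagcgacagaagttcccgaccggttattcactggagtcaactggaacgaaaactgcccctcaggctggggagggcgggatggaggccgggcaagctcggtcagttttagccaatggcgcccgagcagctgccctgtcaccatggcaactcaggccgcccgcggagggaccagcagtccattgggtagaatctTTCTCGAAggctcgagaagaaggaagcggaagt
Hspd1 and Hspe1: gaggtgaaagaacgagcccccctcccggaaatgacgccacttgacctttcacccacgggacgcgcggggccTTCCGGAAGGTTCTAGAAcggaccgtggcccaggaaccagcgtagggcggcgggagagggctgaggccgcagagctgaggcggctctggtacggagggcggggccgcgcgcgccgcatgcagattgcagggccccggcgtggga
Dnajb1: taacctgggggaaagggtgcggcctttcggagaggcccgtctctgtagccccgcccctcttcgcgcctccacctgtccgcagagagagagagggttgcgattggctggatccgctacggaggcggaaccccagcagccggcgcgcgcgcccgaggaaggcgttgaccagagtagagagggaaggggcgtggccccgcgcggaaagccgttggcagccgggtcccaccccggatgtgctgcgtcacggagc
The Hsph1 pair ended 25 bases before the start site of the window shown and 46 before that of the other window. The shared stretch of Hspd1 and Hspe1 held 3 overlapping pairs in a run of 18 bases, which ended 126 bases before the start site of Hspd1 and 71 before that of Hspe1. At least 1 of the pairs occurred in 12.84% of 32851 promoter windows of 27025 genes (6.694% for GAANNTTC and 7.166% for TTCNNGAA), and a triple, a pair followed by another unit at the same spacing, in 0.4657%. Of the 12 windows of the 7 chaperone genes that have one, 7 held a pair. Counted by gene, 6 of the 7 held a pair in at least 1 window, against 14.55% of the 27025 genes, and 2, Hspd1 and Hspe1, held the triple. These genes are not independent. Hspd1 and Hspe1 share 1 stretch, which is counted for both, and the windows of Hspa1a and Hspa1b are near-identical. Of the 6, only Hsph1 and Hspd1 are among the well-detected members. Of 22 cochaperone genes with a window 4 held a pair and 0 the triple. A match is a run of letters and not a measured binding site, and its absence from the Dnajb1 windows says only that these letters are not there.

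Between 14233 and 16002 probes were detected per array, and the median signal ranged from 99.8 to 137. On every array at least 11 of 13 measured B cell markers were detected and at least 10 of 14 stromal and endothelial markers. Transcripts of the exocrine pancreas stood apart in pool 1 of the C57BL/6J controls (summed normalised signal 201452 over 11 genes) and pool 1 of C57BL/6J at 1 Gy (240226), against 2552 to 2877 in the other pools. Pool 2 of DBA/2J at 10 cGy also stood apart from the other 2 pools of its group, with a mean log2 signal of 11.50 against 13.15 and 13.30 for erythroid markers, and 10.02 against 11.72 and 11.75 for replication genes. Pool 1 of the DBA/2J controls stood apart from the other 3, with means of 11.08 against 9.11 to 9.58 for granulocyte markers, 11.10 against 10.17 to 10.37 for replication genes and 10.25 against 10.78 to 10.95 for B cell markers. Counts without these pools, chosen after seeing the data, are given beside the results that rest on them. In bulk spleen RNA, fewer cells of a type and less RNA per cell cannot be told apart.

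Hsph1, the HSP110 nucleotide exchange factor, varied most among the chaperones. It was detected on all 23 arrays, at deposited signals of 2032 to 11722, and its normalised level spanned 2.48 log2 units, against 1.35 for Hspd1 and 1.21 for Dnajb1. The order of its group means ran from C57BL/6J control (12.88 ± 0.27, SD, n = 4) through C57BL/6J at 1 Gy (12.59 ± 0.34, n = 4), DBA/2J at 10 cGy (12.24 ± 0.088, n = 3), C57BL/6J at 10 cGy (11.82 ± 0.36, n = 4) and DBA/2J at 1 Gy (11.33 ± 0.081, n = 4) to DBA/2J control (11.10 ± 0.42, n = 4). Neighbours in this order overlapped, except that all 3 DBA/2J pools at 10 cGy lay above all 4 C57BL/6J pools at 10 cGy.

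**Figure D1:**
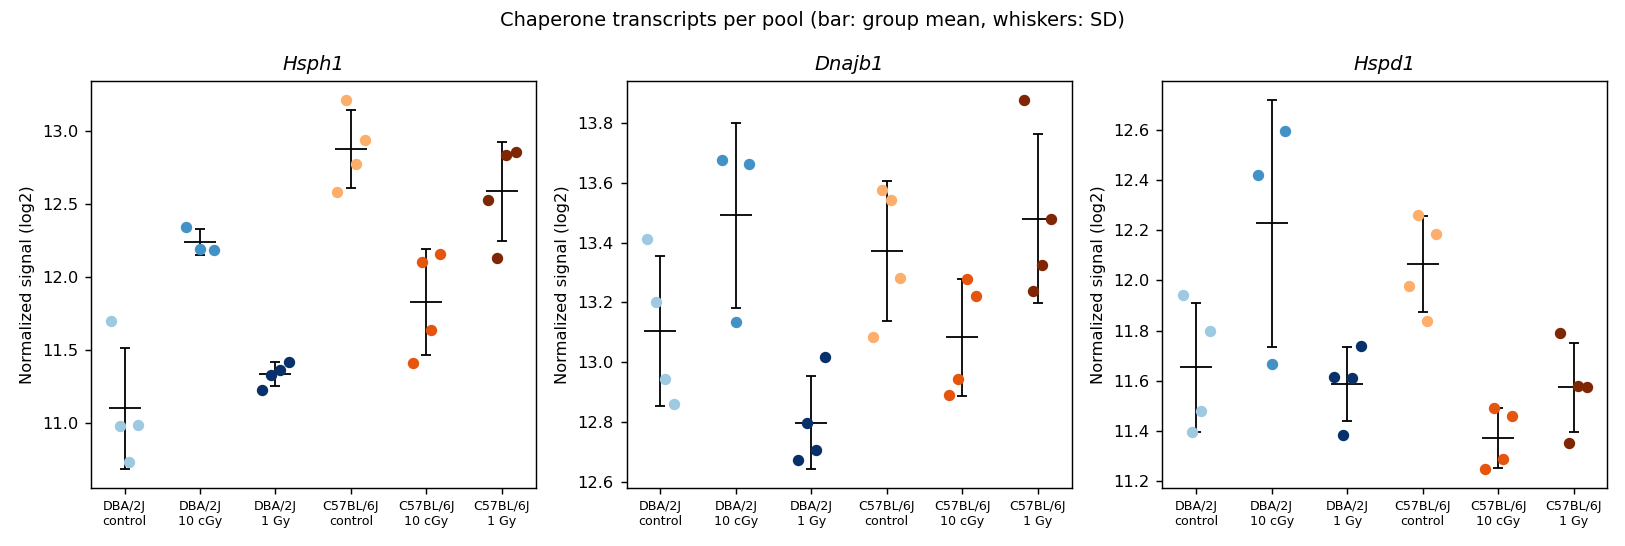
Normalised log2 signal of Hsph1, Dnajb1 and Hspd1 in each pool (points), with the group mean (bar) and SD (whiskers), for control, 10 cGy and 1 Gy in DBA/2J and C57BL/6J; the axes do not start at 0. Hsph1 lay at 12.18 to 12.34 in DBA/2J pools at 10 cGy, above 10.73 to 11.70 in DBA/2J controls, and at 11.41 to 12.16 in C57BL/6J pools at 10 cGy, below 12.58 to 13.22 in C57BL/6J controls.

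In unirradiated spleen Hsph1 was the member that separated the strains. The 4 DBA/2J control pools had log2 signals of 11.70, 10.98, 10.73 and 10.98, and the 4 C57BL/6J control pools 12.58, 13.22, 12.77 and 12.94. No DBA/2J value reached the lowest C57BL/6J value. The difference was -1.78 ± 0.21, a level 3.44-fold lower in DBA/2J (adjusted p = 7.11e-06). Of the 4 tested chaperones 1 was lower and 0 higher, against 10.0% of all features called in either direction and 5.54% called lower. Hspd1 differed by -0.41 ± 0.17 (adjusted p = 0.157) and Dnajb1 by -0.27 ± 0.17 (adjusted p = 0.432), and for these genes the pools of the strains overlapped. An array probe binds a fixed sequence, and whether a DBA/2J variant lies under the Hsph1 probe was not tested. Granulocyte markers also differed between the controls, with 12 of 15 lower in DBA/2J at summed normalised signals of 18949 to 87711, against 59447 to 184529 in C57BL/6J, and their part in the result was not tested. Without pool 1 of the DBA/2J controls the Hsph1 difference was -1.98, and without pool 1 of the C57BL/6J controls -1.88.

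After 10 cGy, Hsph1 was higher than control in DBA/2J. The 3 irradiated pools had log2 signals of 12.34, 12.19 and 12.18, and the 4 control pools 11.70, 10.98, 10.73 and 10.98. Every irradiated pool lay above every control pool, and the highest control was pool 1, which stood apart in its markers. The change was 1.14 ± 0.22, or 2.21-fold (95% confidence interval 0.68 to 1.61 on the log2 scale, adjusted p = 0.00665). Of the 4 tested chaperones 1 was called higher and 0 lower, against 8.12% of all features called in either direction and 4.24% called higher. The median change of the 4 was 0.48, against 0.0018 over all features. The deposited signals of the Hsph1 probe, before any normalisation, were 4249 to 4631 in the irradiated pools and 2032 to 3018 in the controls. Without control pool 1 the Hsph1 change was 1.34 and Hspd1 was called too (0.67, adjusted p = 0.0243), and where only the 2 groups were fitted Hsph1 was not called (adjusted p = 0.242, with 0 of all features called).

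Hspd1, the mitochondrial chaperonin, had log2 signals of 12.42, 11.67 and 12.60 in the DBA/2J pools at 10 cGy, against 11.94, 11.40, 11.48 and 11.80 in DBA/2J controls. The groups overlapped through pool 2, the pool that stood apart. The difference of 0.57 ± 0.18 did not pass the threshold (adjusted p = 0.0575), and without pool 2 it was 0.85 with an adjusted p of 0.000499. Dnajb1, the HSP40 protein that loads clients onto HSP70, had 13.68, 13.13 and 13.66 in the irradiated pools and 13.41, 13.20, 12.94 and 12.86 in controls. Here too pool 2 was the lowest irradiated pool and lay within the controls. The difference was 0.39 ± 0.18 (adjusted p = 0.174), and without pool 2 it was 0.56 (adjusted p = 0.0318). Hsph1 in pool 2 was close to its group, and without that pool its change was 1.17.

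In C57BL/6J the same dose was followed by lower levels. Hsph1 had log2 signals of 11.41, 12.10, 11.63 and 12.16 in the 4 irradiated pools, against 12.58, 13.22, 12.77 and 12.94 in the 4 controls. The groups did not overlap. The change was -1.05 ± 0.21, a level 2.07-fold lower (95% confidence interval -1.49 to -0.62, adjusted p = 0.012). Of the 4 tested chaperones 2 were lower and 0 higher, against 1.73% of all features called in either direction and 1.13% called lower. The median change of the 4 was -0.49, against 0.0057 over all features.

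The other called member in C57BL/6J was Hspd1. Its log2 signals were 11.25, 11.49, 11.29 and 11.46 at 10 cGy, against 11.98, 12.26, 11.84 and 12.18 in controls. All irradiated pools lay below all controls. The change was -0.69 ± 0.17 (1.62-fold lower, adjusted p = 0.0418), close to the threshold, and the call was lost in 7 of 8 fits that each left out 1 pool. The Hsph1 call was lost in 2 of those 8 fits, without pool 2 of the controls (adjusted p = 0.0558) and without pool 1 at 10 cGy (adjusted p = 0.053), with changes of -0.94 and -0.91, and also where only the 2 groups were fitted (adjusted p = 0.0695). Dnajb1 had 12.89, 12.94, 13.28 and 13.22 at 10 cGy and 13.08, 13.58, 13.54 and 13.28 in controls. The groups overlapped, and the difference of -0.29 ± 0.17 did not pass the threshold (adjusted p = 0.442). Without both pools that carried pancreatic transcripts, 1 chaperone was called, Hsph1.

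**Figure D2:**
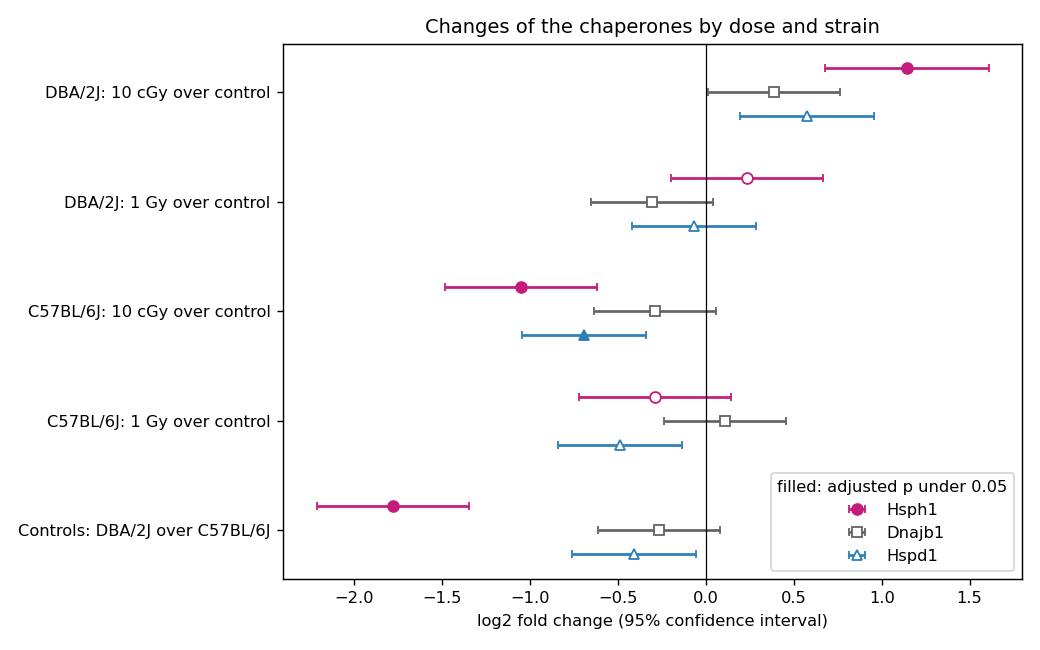
Log2 fold change (points) with 95% confidence interval (lines) of Hsph1, Dnajb1 and Hspd1 in 5 comparisons, irradiated over control within each strain and DBA/2J over C57BL/6J controls; filled points have an adjusted p under 0.05. Hsph1 lay at 1.14 in DBA/2J and at -1.05 in C57BL/6J after 10 cGy, and its intervals after 1 Gy included 0 in both strains.

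The strain difference of the 10 cGy effect was tested directly as an interaction, DBA/2J minus C57BL/6J. It was 2.20 ± 0.30 for Hsph1 (adjusted p = 0.000458) and 1.27 ± 0.25 for Hspd1 (adjusted p = 0.00388), and 0.67 ± 0.24 for Dnajb1 (adjusted p = 0.062). So 2 of the 4 chaperones were called with a more positive effect in DBA/2J, against 17.7% of all features called and 8.63% called in that direction. The Dnajb1 difference was called in 6 of 11 alternatives, with adjusted p from 0.00538 to 0.0991, and in 3 of 15 fits that left out 1 pool: without pool 1 of the C57BL/6J controls (adjusted p = 0.0425), pool 1 of the DBA/2J controls (0.0288) or pool 2 of DBA/2J at 10 cGy (0.0113), with 0.174 the highest of the others. The 2.20 of Hsph1 corresponds to a 4.58-fold ratio of the fold changes. At 10 cGy the DBA/2J mean of Hsph1 stood above the C57BL/6J mean (12.24 against 11.82), whereas in the controls it stood below (11.10 against 12.88).

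Markers of other cells moved with these results. The 10 cGy comparisons with control called 8.12% of all features in DBA/2J and 1.73% in C57BL/6J. At 10 cGy, 14 of 15 measured granulocyte markers were higher in DBA/2J, with summed normalised signals of 183754 to 258119 in irradiated pools and 18949 to 87711 in controls. In C57BL/6J 11 of the 15 were lower, at 15595 to 28282 in irradiated pools and 59447 to 184529 in controls. At least 13 of the 15 were detected on every array, so no group lacked these transcripts. Of 24 erythroid markers limma called 0 in DBA/2J (2 at an unadjusted p under 0.05), and 15 were lower in C57BL/6J, at summed signals of 86698 to 157836 at 10 cGy and 195454 to 290539 in controls. Of 17 genes of DNA replication and mitosis 0 were called in DBA/2J (8 at an unadjusted p under 0.05) and 4 were lower in C57BL/6J, at 16366 to 19632 against 29946 to 49118. Of 13 B cell markers 10 were lower in DBA/2J, at 13733 to 45219 in irradiated pools against 33816 to 58932 in controls, and 0 were called in C57BL/6J (3 at an unadjusted p under 0.05). Of 11 megakaryocyte and platelet markers 8 were higher in DBA/2J, at 36276 to 82888 against 15785 to 40802, and 5 were lower in C57BL/6J, at 7124 to 10513 against 19448 to 42816. Of 15 T cell markers 2 were lower in DBA/2J (10037 to 25155 against 16618 to 24107) and 4 higher in C57BL/6J (28910 to 39863 against 19887 to 26021). Of 14 stromal and endothelial markers 5 were lower in DBA/2J (22079 to 44677 against 40655 to 57526) and limma called 0 in C57BL/6J (2 at an unadjusted p under 0.05). The part of these markers in the changes of Hsph1 and Hspd1 was not tested.

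Several of the DBA/2J marker counts depended on single pools. Without pool 2 at 10 cGy, when 27.3% of all features were called, 9 erythroid markers and 16 replication genes were higher, and 11 B cell, 9 T cell, 8 stromal and 7 of 11 macrophage and monocyte markers were lower. The granulocyte count was again 14. Without pool 1 of the controls, when 16.1% of all features were called, 3 erythroid markers and 4 replication genes were higher and 6 T cell markers lower.

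**Figure D3:**
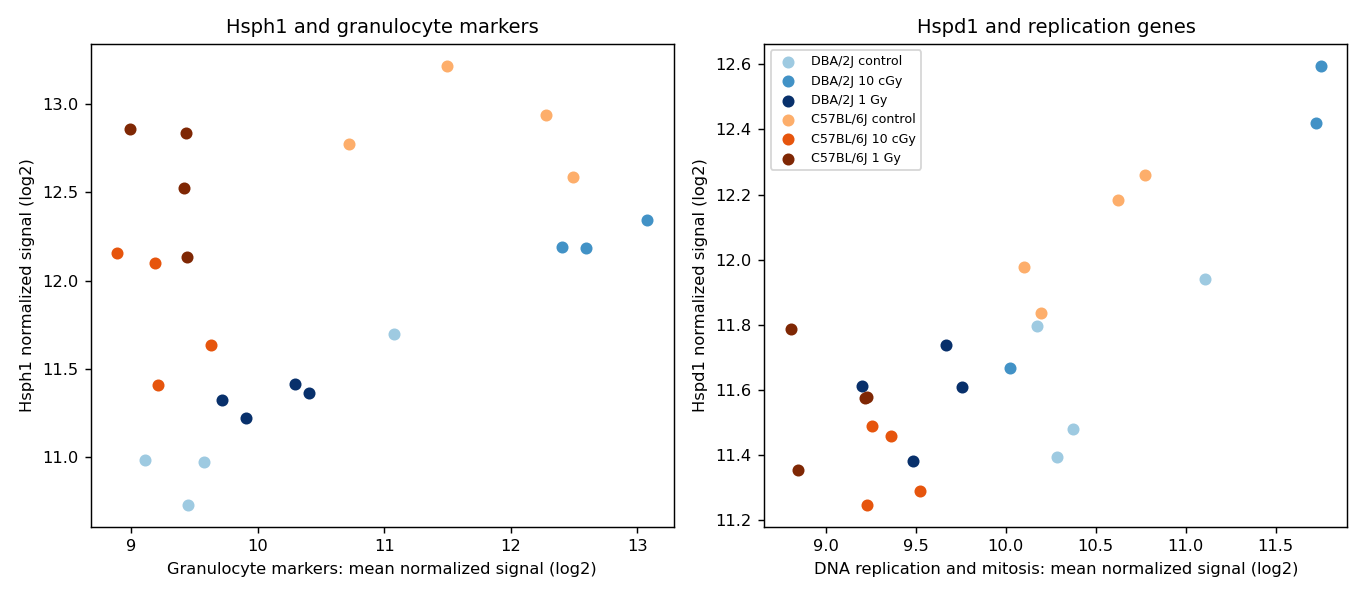
Left, Hsph1 against the mean normalised log2 signal of 15 granulocyte markers, and right, Hspd1 against that of 17 replication and mitosis genes, 1 point per pool, coloured by strain and dose. C57BL/6J pools at 1 Gy held Hsph1 at 12.13 to 12.86 with granulocyte means of 8.99 to 9.44, next to C57BL/6J pools at 10 cGy with Hsph1 at 11.41 to 12.16 and granulocyte means of 8.89 to 9.63.

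After 1 Gy none of the chaperones was called in either strain. In DBA/2J Hsph1 had log2 signals of 11.23, 11.33, 11.36 and 11.42 in irradiated pools, against 11.70, 10.98, 10.73 and 10.98 in controls. The irradiated pools lay close together and inside the range of the controls. The difference was 0.24 ± 0.21 (95% confidence interval -0.20 to 0.67, adjusted p = 0.738). Limma called 0 of the 4 members, against 1.21% of all features called, and 0 of them had an unadjusted p under 0.05. Dnajb1 differed by -0.31 ± 0.17 (adjusted p = 0.483) and Hspd1 by -0.07 ± 0.17 (adjusted p = 0.947). Among the marker lists, 9 of 24 erythroid markers and 3 of 17 replication genes were lower, and 1 of 14 stromal and endothelial markers was higher.

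In C57BL/6J at 1 Gy, Hsph1 had 12.52, 12.13, 12.83 and 12.86, against 12.58, 13.22, 12.77 and 12.94 in controls. The groups overlapped, and the difference was -0.29 ± 0.21 (95% confidence interval -0.72 to 0.14, adjusted p = 0.476). Hspd1 had 11.79, 11.35, 11.58 and 11.58, all below the 11.98, 12.26, 11.84 and 12.18 of the controls, and differed by -0.49 ± 0.17 (adjusted p = 0.0948). Dnajb1 differed by 0.11 ± 0.17 (adjusted p = 0.8). Limma called 0 of the 4 members, against 6.22% of all features called. At an unadjusted p under 0.05 there was 1, without a like share over all features. The granulocyte markers were lower at this dose as at 10 cGy, 11 of 15 with summed signals of 17244 to 33593 at 1 Gy, and so were 20 of 24 erythroid markers. Lower too were 12 of 17 replication genes and 4 of 11 megakaryocyte and platelet markers. Higher were 5 of 15 T cell, 4 of 8 NK cell, 3 of 14 stromal and endothelial and 1 of 11 macrophage and monocyte markers. The part of these markers in the chaperone levels was not tested. The strain difference of the 1 Gy effect was not called for any member (0.53 ± 0.29 for Hsph1, -0.42 ± 0.23 for Dnajb1 and 0.42 ± 0.24 for Hspd1, adjusted p = 1 each, and 0 at an unadjusted p under 0.05), against 0.233% of all features called.

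Set directly against each other, the doses differed for 3 chaperones in DBA/2J. At 1 Gy Hsph1 was lower than at 10 cGy by -0.91 ± 0.22 (adjusted p = 0.00525), with pools of 11.23 to 11.42 against 12.18 to 12.34. Dnajb1 was at 12.67, 12.80, 12.71 and 13.02 at 1 Gy and at 13.68, 13.13 and 13.66 at 10 cGy. These pools did not overlap, and the difference was -0.69 ± 0.18 (adjusted p = 0.00707). Hspd1 was at 11.61, 11.38, 11.61 and 11.74 at 1 Gy against 12.42, 11.67 and 12.60 at 10 cGy, which overlapped at pool 2 of the lower dose, with a difference of -0.64 ± 0.18 (adjusted p = 0.012). Lower calls thus covered 3 of 4 chaperones and higher calls 0, in a comparison that called 33.4% of all features and 16.5% as lower. Without pool 1 at 10 cGy 1 chaperone, Hsph1, was called, and without pool 3 Hspd1 was not (adjusted p = 0.0951). Without pool 2 the Hspd1 difference was -0.92 (adjusted p = 0.00012).

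The doses also differed in cell markers in DBA/2J, in the comparison that called 33.4% of all features. All 17 replication genes were lower at 1 Gy, at summed signals of 17034 to 24872 against 28093 to 91372 at 10 cGy. Of the erythroid markers 21 of 24 were lower (119308 to 169197 against 212313 to 426364), of the granulocyte markers 14 of 15 (35101 to 49858 against 183754 to 258119) and of the megakaryocyte and platelet markers 6 of 11 (27961 to 39556 against 36276 to 82888). Higher at 1 Gy were 11 of 13 B cell markers (49528 to 56352 against 13733 to 45219), 9 of 11 macrophage and monocyte markers (93208 to 109109 against 39952 to 80472), 8 of 15 T cell markers and 8 of 14 stromal and endothelial markers. Their part in the lower levels of the 3 chaperones was not tested.

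In C57BL/6J Hsph1 was higher at 1 Gy than at 10 cGy by 0.76 ± 0.21, Dnajb1 by 0.40 ± 0.17 and Hspd1 by 0.20 ± 0.17. Limma called 0 of the 4 members (adjusted p = 0.264, 0.745 and 1), against 0.192% of all features called. At an unadjusted p under 0.05 there were 3, without a like share over all features to set them against. Those 3 were Hsph1, Dnajb1 and Hspa1a, and Hspd1 was not among them. Hspa1a, which lay near background, differed by 0.024 ± 0.0086. Its probe passed the detection rule through 3 arrays, all C57BL/6J and 2 of them at 1 Gy. Its place in this count thus rests on arrays that let it in, and is not read as support for a dose difference. The Hsph1 pools of the doses met at 12.13 for the lowest at 1 Gy and 12.16 for the highest at 10 cGy.

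Dnajb1 was the brightest of the member probes, with deposited signals of 7366 to 17081, and among the 3 well-detected members the one whose group means were closest. Its group means ran from 13.49 ± 0.31 in DBA/2J at 10 cGy (SD, n = 3) and 13.48 ± 0.28 in C57BL/6J at 1 Gy through 13.37 ± 0.23 in C57BL/6J controls, 13.11 ± 0.25 in DBA/2J controls and 13.08 ± 0.20 in C57BL/6J at 10 cGy to 12.80 ± 0.16 in DBA/2J at 1 Gy (n = 4 each), and each overlapped the next. The means of Hspd1 ran from 12.23 ± 0.49 in DBA/2J at 10 cGy (n = 3) and 12.06 ± 0.19 in C57BL/6J controls through 11.65 ± 0.26 in DBA/2J controls, 11.59 ± 0.15 in DBA/2J at 1 Gy and 11.57 ± 0.18 in C57BL/6J at 1 Gy to 11.37 ± 0.12 in C57BL/6J at 10 cGy (n = 4 each). Within groups the same pool was often extreme for all 3 genes: pool 2 was highest in C57BL/6J controls, pool 1 in DBA/2J controls and pool 4 in DBA/2J at 1 Gy, and pool 1 was lowest in C57BL/6J at 10 cGy and pool 2 in C57BL/6J at 1 Gy.

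Hspa1a, the stress-inducible HSP70, stayed near background. Its deposited signals ranged from 85.5 to 147, its normalised levels from 7.84 to 7.90, and it was detected on 2 C57BL/6J arrays at 1 Gy, 1 C57BL/6J control array and no DBA/2J array. The highest signal was 147 in pool 1 of C57BL/6J at 1 Gy. It was called in none of the 9 comparisons, and at this signal a change of the transcript was not detectable. Whether its probe also binds Hspa1b, a near-identical copy, was not tested. Dnaja1, a cytosolic J-domain protein, ranged from 82.3 to 115 and passed detection only in pool 2 of DBA/2J at 10 cGy.

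The cochaperones that work with HSP70 and HSP90 were taken as a list of 26 genes, 25 of them measured. After 10 cGy 4 were higher and 0 lower in DBA/2J: Ppid, a cyclophilin of HSP90 complexes (0.63 ± 0.13), Nudc, a cochaperone of HSP90 that associates with dynein (0.57 ± 0.17), Ahsa1, the activator of the HSP90 ATPase (0.49 ± 0.13), and Bag1, a nucleotide exchange factor of HSP70 (0.31 ± 0.080). Of the same 25 genes 3 were lower and 0 higher in C57BL/6J, namely Ppid (-0.51 ± 0.12), Ahsa1 (-0.49 ± 0.12) and Bag1 (-0.32 ± 0.074). Over all features 8.12% were called in DBA/2J (4.24% higher) and 1.73% in C57BL/6J (1.13% lower). The median change of the list was 0.17 in DBA/2J and -0.07 in C57BL/6J, against 0.0018 and 0.0057 over all features. Without pool 2 of DBA/2J at 10 cGy the DBA/2J count was 9, when 27.3% of all features were called. Without pool 1 of the DBA/2J controls it was 6, when 16.1% of all features were called. Without the pools with pancreatic transcripts the C57BL/6J count was 2, and the share over all features in that fit is not given here.

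The strain difference of the 10 cGy effect was called for 7 of the 25 cochaperones, all more positive in DBA/2J, against 17.7% of all features called. The largest were Stip1, the linker between HSP70 and HSP90 (1.28 ± 0.32, adjusted p = 0.0134), Ppid (1.14 ± 0.18), Fkbp4, an immunophilin of HSP90 complexes with steroid receptors (1.09 ± 0.32), and Ahsa1 (0.98 ± 0.17, adjusted p = 0.00229). The median over the list was 0.25, against -0.0023 over all features. Ahsa1 averaged 11.90 ± 0.031 at 10 cGy (SD, n = 3) and 11.41 ± 0.21 in controls (n = 4) in DBA/2J, and 11.54 ± 0.15 and 12.03 ± 0.21 in C57BL/6J (n = 4 each). Without pool 2 of DBA/2J at 10 cGy 13 of the 25 were called, 11 of them more positive in DBA/2J, against 32.6% of all features called.

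**Figure D4:**
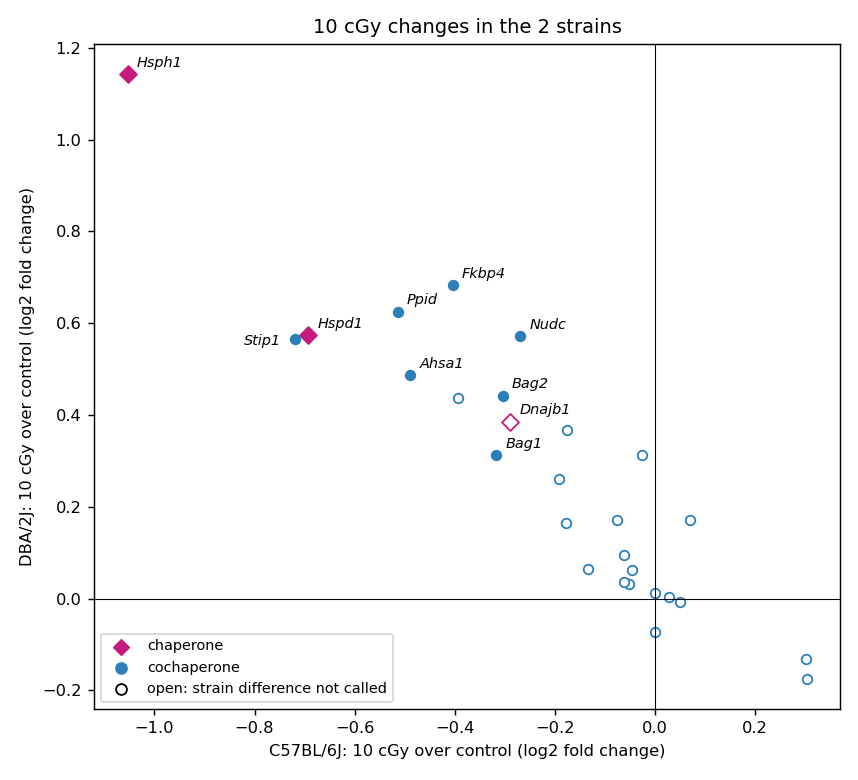
Log2 fold change after 10 cGy over control in DBA/2J (vertical axis) against C57BL/6J (horizontal axis) for 3 chaperones (diamonds; Hspa1a, near background, is left out) and 25 cochaperones (circles); filled symbols have a called strain difference. Hsph1 lies farthest to the upper left, at 1.14 in DBA/2J and -1.05 in C57BL/6J, and the 7 filled cochaperones lie above 0 in DBA/2J and below 0 in C57BL/6J.

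After 1 Gy limma called 0 of the 25 cochaperones in DBA/2J (1 at an unadjusted p under 0.05), and 2 were lower in C57BL/6J, Ppid (-0.48 ± 0.12) and Bag1 (-0.36 ± 0.074). The shares called over all features were 1.21% in DBA/2J and 6.22% in C57BL/6J. At 1 Gy against 10 cGy in DBA/2J 9 were lower and 1 higher, against 33.4% of all features called, with Stip1 at -0.79 ± 0.24, Fkbp4 at -0.63 ± 0.23, Ppid at -0.62 ± 0.13 and Bag2, another exchange factor of HSP70, at -0.60 ± 0.15. In C57BL/6J 0 were called between the doses (5 at an unadjusted p under 0.05), against 0.192% of all features. Among controls 5 were lower in DBA/2J and 0 higher, among them Chordc1, a cochaperone of HSP90 (-0.87 ± 0.13), Fkbp4 (-0.70 ± 0.22), Ahsa1 (-0.62 ± 0.12) and Ppid (-0.41 ± 0.12). The comparison of the controls called 10.0% of all features, 5.54% as lower.

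Other genes known as HSF1 targets were taken as a list that shares Stip1, Fkbp4, Ahsa1, Chordc1 and Cacybp with the cochaperones. Of 18 measured, 1 was higher after 10 cGy in DBA/2J and 1 lower in C57BL/6J, Ahsa1 in both cases. Limma called 8.12% of all features in DBA/2J (4.24% higher) and 1.73% in C57BL/6J (1.13% lower) at that dose. After 1 Gy 0 of the list were called in DBA/2J (3 at an unadjusted p under 0.05) and 1 was higher in C57BL/6J, Zfand2a, an arsenite-inducible proteasome adaptor (0.40 ± 0.11). The shares over all features at 1 Gy were 1.21% and 6.22%. The strain difference at 10 cGy was called for 5 of the 18, against 17.7% of all features, with Stip1, Fkbp4 and Mrpl18, a mitochondrial ribosomal protein (1.06 ± 0.28), more positive in DBA/2J and Cryab, a small heat shock protein (-1.01 ± 0.32), less so. Between the controls 5 of the 18 targets were lower in DBA/2J and 1 higher, against 10.0% of all features called and 5.54% called lower. At 1 Gy against 10 cGy in DBA/2J 6 were lower and 4 higher, against 33.4% of all features called. HSF1 and its regulators, of which 3 of 6 listed genes were measured, had 0 calls by limma in either strain at either dose against control, also at an unadjusted p under 0.05.

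In mitochondria, where Hspd1 acts, 3 of 11 measured chaperones and proteases were higher in DBA/2J after 10 cGy and 0 lower. These were Phb2, a prohibitin of the inner membrane (0.59 ± 0.15), the matrix protease Lonp1 (0.49 ± 0.14) and the inner membrane protease Afg3l2 (0.46 ± 0.12). In C57BL/6J 0 of the 11 were called (2 at an unadjusted p under 0.05), at a median of -0.19. The shares called over all features were 8.12% in DBA/2J (4.24% higher) and 1.73% in C57BL/6J. The strain difference was called for 6 of 11, all more positive in DBA/2J, against 17.7% of all features called, among them Htra2, a protease of the intermembrane space (0.99 ± 0.29), and Phb2 (0.99 ± 0.21). Of 14 measured subunits of the cytosolic chaperonin TRiC and of prefoldin, which hands it unfolded actin and tubulin, 1 was higher in DBA/2J, Pfdn6 (0.69 ± 0.15), and 0 were called in C57BL/6J (2 at an unadjusted p under 0.05). The strain difference was called for 2 of the 14, Pfdn6 (0.99 ± 0.21) and Cct6a (0.87 ± 0.25), against 17.7% of all features. Without pool 2 of DBA/2J at 10 cGy, when 27.3% of all features were called in DBA/2J, 7 mitochondrial genes were higher and 0 lower, 5 TRiC and prefoldin genes were higher and 1 lower, and 6 HSF1 targets were higher and 2 lower. Without pool 1 of the DBA/2J controls, when 16.1% of all features were called, 4 mitochondrial genes were higher and 1 lower.

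The remaining families gave scattered calls after 10 cGy, where 8.12% of all features were called in DBA/2J and 1.73% in C57BL/6J. Among 21 other J-domain proteins 1 was lower in C57BL/6J, Dnajb2, a regulator of ubiquitylated clients (-1.27 ± 0.25), and 2 were higher in DBA/2J, Dnajb12 (0.12 ± 0.034) and Dnajc17 (0.09 ± 0.026). Dnajb2 was also lower after 1 Gy in DBA/2J (-1.05 ± 0.25) and in C57BL/6J (-1.31 ± 0.25), and its strain difference at 10 cGy was 1.77 ± 0.37. Of 21 chaperones and stress genes of the endoplasmic reticulum 1 was higher in DBA/2J, the stress transcription factor Ddit3 (0.78 ± 0.11), and 0 were called in C57BL/6J (1 at an unadjusted p under 0.05). Limma called 0 of 5 measured small heat shock proteins at 10 cGy against control (at an unadjusted p under 0.05, 2 in DBA/2J and 0 in C57BL/6J) and 0 of 4 other HSP70 and HSP110 genes (1 in DBA/2J and 2 in C57BL/6J). Of 3 measured cold-inducible RNA-binding proteins 1 was lower in DBA/2J after 10 cGy. Among controls 2 of the 3 were higher in DBA/2J, against 10.0% of all features called. Cirbp, induced by cooling and repressed by heat, was lower in DBA/2J after 10 cGy (-0.49 ± 0.12). It was higher in DBA/2J controls than in C57BL/6J controls (0.57 ± 0.11), opposite to Hsph1 in both comparisons. The cause was not tested. Of 16 measured immediate-early genes 1 was higher and 1 lower in DBA/2J at 10 cGy, the stress-inducible Ier3 (0.94 ± 0.24) and the transcription factor Egr3 (-1.04 ± 0.27), and 0 were called in C57BL/6J (3 at an unadjusted p under 0.05).

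Among all genes, those whose level followed the mean standardised level of the 4 detected chaperones most closely over the 23 pools were Stip1 (Pearson's r = 0.86, Spearman's rho = 0.88), Ahsa1 (r = 0.81, rho = 0.85) and Socs4, a suppressor of cytokine signalling (r = 0.81, rho = 0.83), followed by Leo1, Dipk2a, Mta3, Ptp4a1 and Dmwd at r of 0.77 to 0.78. Once each group's mean was subtracted, the closest were Reps1 (r = 0.84), Caprin1 and Fip1l1 (r = 0.81 each) and Cct6a (r = 0.80), with Myo7b, Nbr1, Scaf11 and Cct8 at 0.76 to 0.79. Cct6a and Cct8 are TRiC subunits. Reps1 was detected on 3 of the 23 arrays and Myo7b on 10, at levels of 7.85 to 7.88 and 7.87 to 7.92, so both ranks rest on signals near background. These values describe 23 pools that share strain, dose and array normalisation, and the standardised mean gives Hspa1a, which lay near background, the same weight as the other members.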

How the data were processed

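Spleen RNA of 23 pools was measured on single-colour Illumina arrays. The authors deposited 1 linear signal intensity per probe and array, not normalized, with a detection p-value beside it, per the file headers. A second deposited table holds log2 values processed by the authors. The submitters' processing notes name lumi, version not given in the sources used here. Array background was inferred from the deposited detection p-values, followed by normexp (offset 16), quantile normalization and log2 with limma 3.58.1 in R 4.3.3, which compresses changes of dim probes. Probes with a detection p-value under 0.05 on at least 3 arrays were kept (18423 of 34492). Of the probes, 20256 had 1 gene symbol in the platform annotation, 9 several and 14227 none. The brightest probe stood for each symbol. A model of 6 group means over all 23 arrays (lmFit, eBayes) gave 9 comparisons. Hsph1, Dnajb1 and Hspd1 are named in every comparison, and for Hspa1a, near background, mostly the absence of calls is stated. From other lists, at most 4 called genes of largest change are named, and 8 genes by likeness. Members, lists, tests and alternatives were chosen with earlier results of these data known. The number of arrays limits the precision. The fits were tested on simulated data.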

Additional observations from a re-analysis of the deposited data

Results flagged for a closer look

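The effect of 10 cGy differed between the strains for 2 chaperones by the interaction test of limma. For Hsph1 the difference, DBA/2J minus C57BL/6J, was 2.20, and for Hspd1 it was 1.27. Both kept their call in all 11 alternatives and in all 15 fits that left out 1 pool. In the 5 groups of 4 pools, a Dixon ratio set no pool apart for any of the 4 members, 20 gene and group pairs in all. This ratio divides the gap beside the extreme pool by the range, and with 4 pools it flags only very large gaps. It therefore cannot show that the pools were alike. Pool 1 of the DBA/2J controls was not flagged for Hsph1, at 11.70 against 10.73 to 10.98 in the other pools. DBA/2J at 10 cGy, with 3 pools, was not examined in this way.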

How the results depend on the processing

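No result changed sign. Fitting only the groups compared left 0 chaperones called for 10 cGy in DBA/2J (main 1, with 0 of all features called), 1 for 10 cGy in C57BL/6J (main 2) and 1 for 1 Gy against 10 cGy in DBA/2J (main 3). Array weights gave 1 for 1 Gy in C57BL/6J (main 0), 3 for 10 cGy in DBA/2J and 2 for the controls (main 1). For 10 cGy in C57BL/6J the count was 1 with cyclic loess, median scaling, no detection filter or both pancreas pools left out. For 10 cGy in DBA/2J it was 2 with the authors' values, cyclic loess, detection on all arrays or no background correction. Median scaling gave 2 for the controls. The strain difference at 10 cGy gave 2 to 3. Most of these counts are given without the share of all features called, so they do not set the chaperones against other features. Why the counts changed was not tested.

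Leaving out 1 pool at a time gave 0 to 2 chaperones for 10 cGy in C57BL/6J (0 without control pool 2 or 10 cGy pool 1, and 1 without control pool 1 or 4 or 10 cGy pool 2, 3 or 4), 1 to 3 for 10 cGy in DBA/2J (2 without control pool 1, 3 without 10 cGy pool 2), 1 to 3 for 1 Gy against 10 cGy in DBA/2J (1 without 10 cGy pool 1), 1 for the controls, 2 to 3 for the strain difference at 10 cGy, and 0 for the others. For 10 cGy in DBA/2J the main fit called 8.12% of all features. That share was 16.1% without control pool 1 and 27.3% without 10 cGy pool 2. The Hsph1 difference between controls stayed called in all 11 alternatives and in 8 fits that left out 1 pool (-2.01 to -1.59). Its rise in DBA/2J stayed called in all 7 (1.02 to 1.34) and was lost among the alternatives where only the groups compared were fitted (adjusted p = 0.242). No paired analysis was possible because the groups share no replicate numbers in the labels. The chip as a block was not run, since the file headers name no chips, nor were other probes of a member, since each has 1. Dim signal limits Hspa1a and Dnaja1.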
